A study of Mus musculus with 28 samples.

Results

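The cystine and cysteine transporters described here are 9 genes, Slc3a1, Slc7a9, Slc3a2, Slc7a11, Slc7a5, Slc1a1, Slc1a4, Slc1a5 and Ctns, taken from a table of 54354 genes by an exact match of the gene symbol. All 9 symbols were found once. The 28 libraries came from mouse small intestine. All groups carry the Lgr5-GFP reporter, whose green fluorescence follows the activity of Lgr5, a receptor gene of crypt stem cells. Lgr5-high cells on control diet, Lgr5-high cells on cystine diet, Lgr5-low cells on control diet and Lgr5-low cells on cystine diet formed 4 groups of 7 libraries. The sources used here do not give the age or sex of the mice, the time on the diet or its cystine content. The extraction protocol names organoids as the source of the RNA, while the design text names cells isolated from the small intestine, and this was not settled. Nothing in the labels ties each library to its own animal, so the spread behind the p-values is that between libraries and may be technical in part. By Xist level, read from the data, every group held female and male libraries and so came from more than a single animal.

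Cysteine reaches intestinal cells as cystine, its oxidised dimer, as free cysteine and within peptides. Cystine transporters of the SLC7 family pair a light chain, which carries the amino acid, with a heavy chain of the SLC3 family, which brings the complex to the cell surface. In small intestine and kidney the heavy chain rBAT (Slc3a1) and the light chain b0,+AT (Slc7a9) take up cystine and cationic amino acids at the brush border, and loss of either causes cystinuria. The heavy chain 4F2hc (Slc3a2) pairs with several light chains, among them the cystine and glutamate exchanger xCT (Slc7a11) and the large neutral amino acid carrier LAT1 (Slc7a5). The SLC1 family holds the sodium-dependent carriers EAAT3 (Slc1a1), which takes up glutamate, aspartate and cysteine, and ASCT1 (Slc1a4) and ASCT2 (Slc1a5), which exchange alanine, serine, cysteine and, for ASCT2, glutamine. Cystinosin (Ctns) releases cystine from lysosomes.

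Promoter windows of 300 bases, as RefSeq gives them on GRCm38.p6, matched 7 of the 9 genes. The windows of 4 are shown because Slc3a1 and Slc7a9 encode the chains of the brush border carrier, and Slc7a11 and Slc1a4 are known targets of the amino acid response, in which the factor ATF4 acts through an element shared with C/EBP proteins. Sequences run 5′ to 3′ on the strand of the gene, and capitals mark matches on either strand to TGATGNAA (the C/EBP-ATF element), CAAAGTCCA (bound by HNF4) or GTTAAT (a half-site of HNF1). TGACNNNGC, the antioxidant response element of NRF2, was searched on both strands as well. The last bases of each window lie within the transcript, and the RefSeq start of Slc3a1 lies upstream of the start in the GENCODE annotation. The windows of Slc7a9 and Slc3a2 lie wholly within the genes as GENCODE bounds them. They hold no base upstream of the outermost GENCODE start, and sequence there was not searched.
Slc3a1, chr17:85028097-85028396, plus strand: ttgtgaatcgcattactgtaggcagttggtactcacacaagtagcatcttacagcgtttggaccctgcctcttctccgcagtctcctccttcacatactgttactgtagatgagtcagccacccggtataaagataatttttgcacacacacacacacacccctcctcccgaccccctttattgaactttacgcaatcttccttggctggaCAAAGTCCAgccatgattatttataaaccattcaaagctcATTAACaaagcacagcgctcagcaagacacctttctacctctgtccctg
Slc7a9, chr7:35448842-35449141, plus strand: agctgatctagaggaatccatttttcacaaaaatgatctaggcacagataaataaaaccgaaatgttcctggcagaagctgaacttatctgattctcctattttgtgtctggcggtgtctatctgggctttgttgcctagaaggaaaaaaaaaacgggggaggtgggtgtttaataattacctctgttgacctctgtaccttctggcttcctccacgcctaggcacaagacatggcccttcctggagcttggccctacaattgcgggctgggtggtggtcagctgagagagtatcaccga
Slc7a11, chr3:50443564-50443863, minus strand: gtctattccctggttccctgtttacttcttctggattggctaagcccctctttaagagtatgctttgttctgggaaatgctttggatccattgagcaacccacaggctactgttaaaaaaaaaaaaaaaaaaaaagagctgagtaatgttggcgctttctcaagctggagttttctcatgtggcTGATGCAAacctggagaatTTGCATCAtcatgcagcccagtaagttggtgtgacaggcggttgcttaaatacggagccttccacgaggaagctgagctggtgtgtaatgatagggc
Slc1a4, chr11:20332664-20332963, minus strand: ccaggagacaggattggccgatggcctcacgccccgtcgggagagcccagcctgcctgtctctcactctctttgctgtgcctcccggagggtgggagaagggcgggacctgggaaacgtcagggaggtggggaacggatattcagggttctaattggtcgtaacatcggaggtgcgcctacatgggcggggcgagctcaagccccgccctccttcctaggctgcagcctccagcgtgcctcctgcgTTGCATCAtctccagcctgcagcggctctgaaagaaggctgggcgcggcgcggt
The Slc7a11 window held 2 matches to the C/EBP-ATF element, beginning at positions -66 and -47 from the start site and lying on opposite strands. The Slc1a4 window held 1, beginning at -4. Of 32851 promoter windows of the same length, 3.97% held this element. The Slc3a1 window held 1 HNF4 match at -39 and 1 HNF1 half-site at 2, which 0.475% and 7.1% of all windows held. No match to these 3 motifs was found in the Slc7a9 window shown, nor in those of Slc3a2, Slc1a1 and Ctns. The antioxidant response element had no match in any window of the 7 genes, and 12.4% of all windows held one. A match describes the letters and is not a binding site.

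Total counts per library ran from 2.75 to 21.5 M (M, mega). Group medians were 15.4 M in Lgr5-high control, 5.32 M in Lgr5-high cystine, 7.3 M in Lgr5-low control and 14.8 M in Lgr5-low cystine libraries, so depth differed between the groups compared. The sort was visible in the marker genes: Lgr5 was higher in Lgr5-high libraries by 2.99 ± 0.43 (log2 fold change ± SE, adjusted p = 9.85e-05) on control diet and by 1.96 ± 0.42 (adjusted p = 0.00614) on cystine diet. All 10 stem cell markers had positive values on both diets. Markers of other intestinal cells were also present in every group. The 14 macrophage markers summed to 24.7 to 693 CPM (median 414) in Lgr5-high cystine libraries and to at most 151 CPM in any library of the other groups, and none of them was at 0 throughout a group. CPM are counts scaled to a common library size with TMM factors, and differences were tested with edgeR's quasi-likelihood method with Benjamini-Hochberg adjustment over 12495 genes and a threshold of 0.05. Of the 9 transporter genes, 8 passed the filter on low counts and Slc7a11 did not.

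Over all 28 libraries, Slc7a9, Slc3a2 and Slc1a5 had the highest mean levels of the 9 per length of transcript, and in each group Slc7a9 stood highest and Slc7a5 and Slc7a11 lowest. On the scale of CPM per kilobase of all exons, the mean level over the 28 libraries was 19.8 ± 14.2 (SD) for Slc7a9, 10.6 ± 5.58 for Slc3a2 and 8.45 ± 2.26 for Slc1a5. Slc3a1 followed at 5.7 ± 3.72. A lower tier held Slc1a1 at 1.43 ± 1.03, Ctns at 1.4 ± 0.662 and Slc1a4 at 0.684 ± 0.698. The lowest levels were 0.294 ± 0.268 for Slc7a5 and 0.0262 ± 0.0509 for Slc7a11. Slc3a1 and Slc1a1, and also Ctns and Slc1a4, lay further apart than the larger of their SDs, and Slc7a5 lay above Slc7a11 by as much as its own SD. The other neighbours in this order differed by less than the larger of their SDs. Lengths from the longest coding transcript gave the same order over all libraries. On the scale of all exons the order within groups differed in places. Slc1a5 stood above Slc3a2 in both Lgr5-high groups, and Slc3a1 (7.38) above Slc1a5 (7.07) in Lgr5-low control libraries. Slc1a4 (1.18) stood above Ctns (0.905) and Slc1a1 (0.758) in Lgr5-high cystine libraries. In Lgr5-high control libraries Ctns (1.83) stood above Slc1a1 (1.1). Lengths from the longest coding transcript kept Slc1a5 above Slc3a2 and Slc1a4 above Ctns in these groups. They reversed the other placements: Slc1a5 then stood above Slc3a1 in Lgr5-low control libraries. Slc1a1 then stood above Ctns in both Lgr5-high groups and above Slc1a4 in Lgr5-high cystine libraries. Those placements thus depended on the length used. The light chain of the brush border carrier was thus present at a higher level per kilobase than its heavy chain in every group mean.

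**Figure D1:**
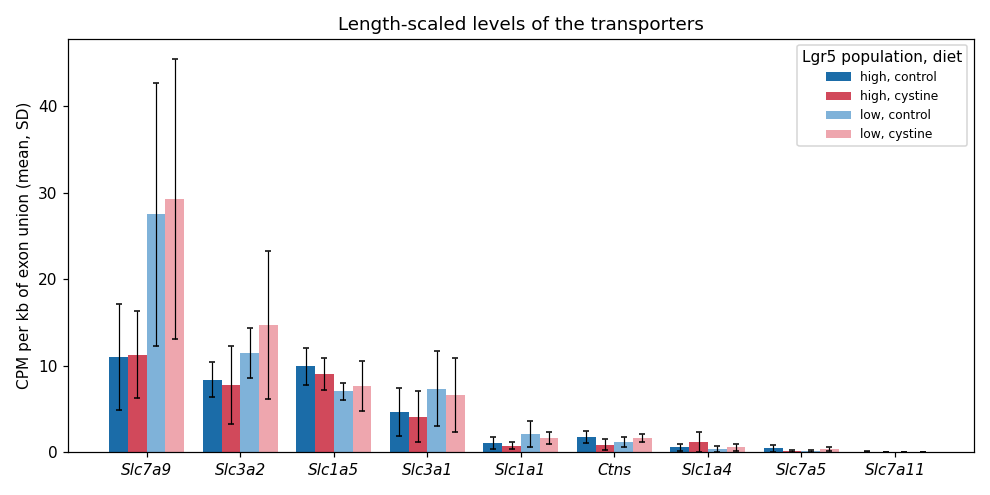
Mean CPM per kilobase of all exons for each of the 9 transporter genes (bars, with SD, n = 7) in the 4 groups of Lgr5 population and diet, ordered by the mean over 28 libraries. Slc7a9 stands highest at 19.8 over all libraries and Slc7a11 lowest at 0.0262.

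Between the populations, Slc7a9, Slc3a2 and Slc1a1 were lower in Lgr5-high than in Lgr5-low libraries when the effect was averaged over both diets, a contrast chosen after the data had been seen. No transporter passed the threshold within a single diet. Slc1a5 leaned the other way, with 0.36 ± 0.14 (adjusted p = 0.108), and did not pass. With limma-voom it passed at 0.36 (adjusted p = 0.043), and without Lgr5-low cystine replicate 2 at 0.45 (adjusted p = 0.03), while its adjusted p over 40 settings ran from 0.03 to 0.694. Between the diets, none of the 8 tested transporters passed the threshold in either population. In bulk libraries fewer cells of a type and less RNA per cell cannot be told apart.

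On control diet 0 of 8 tested transporters passed in the comparison of Lgr5-high with Lgr5-low, against 1.8% of all tested genes. At an unadjusted p under 0.05, 3 did, Slc7a9, Slc1a5 and Slc1a1, against 12.9% of all genes. On cystine diet 0 of 8 passed, against 2.64% of all genes, and 3 had an unadjusted p under 0.05, Slc7a9, Slc3a2 and Slc1a1, against 15.5%. DESeq2 and limma-voom also called 0 transporters in each of these contrasts. Averaged over the diets, 3 of 8 passed, all lower in Lgr5-high libraries, against 8.8% of genes called in either direction and 5.05% called lower. The median log2 difference of the 8 transporters was -0.41, and that of all tested genes was -0.02. In no pairwise contrast did the 2 groups of libraries separate without overlap for any of the 9 genes, which 0.96% and 1.3% of all genes did between populations on control and cystine diet, and 0.216% and 0.064% between diets in Lgr5-high and Lgr5-low libraries.

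Slc7a9, at chr7:35448796-35466036 on the plus strand of GRCm38, encodes the light chain b0,+AT of the brush border carrier. In Lgr5-high libraries it ranged from 9.12 to 57.7 CPM (median 29.2) on control diet and from 3.6 to 45.7 CPM (median 30.6) on cystine diet. In Lgr5-low libraries it ranged from 30.4 to 133 CPM (median 55.3) on control diet and from 21.5 to 147 CPM (median 87.6) on cystine diet. The groups overlapped, but 6 of 7 Lgr5-high control libraries and 7 of 7 Lgr5-high cystine libraries lay below the median of the Lgr5-low group on the same diet. Lgr5-high minus Lgr5-low was -1.32 ± 0.47 (log2 ± SE, adjusted p = 0.173) on control diet and -1.39 ± 0.47 (adjusted p = 0.127) on cystine diet. Averaged over both diets, Slc7a9 fell by 1.35 ± 0.33 on the log2 scale (95% interval -2.04 to -0.66, adjusted p = 0.0101), to 0.392 of the Lgr5-low level. This call was kept when any 1 of the 28 libraries was left out, with adjusted p between 0.00443 and 0.0197. It was lost with the enterocyte score term described below (-0.7, adjusted p = 0.314). It was also lost within each sex class read from Xist, on fewer libraries. There it stood at -1.17 (adjusted p = 0.084) in the female and -1.89 (adjusted p = 0.219) in the male class. Between diets the difference was 0.03 ± 0.47 (95% interval -0.94 to 0.99) in Lgr5-high and 0.1 ± 0.46 (-0.85 to 1.04) in Lgr5-low libraries.

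Slc3a1, at chr17:85028376-85064236 on the plus strand, encodes rBAT, the heavy chain of the same carrier. It shares part of its locus with Prepl on the opposite strand, and the sources used here do not say whether strand was used in counting, so its values are uncertain to that extent. In Lgr5-high libraries it ranged from 4.13 to 20.5 CPM (median 8.71) on control diet and from 1.06 to 18.4 CPM (median 6.07) on cystine diet. In Lgr5-low libraries it ranged from 8.29 to 31.9 CPM (median 10.8) and from 6.95 to 30.8 CPM (median 11.7). The groups overlapped over most of their range. The population difference had the same sign as that of Slc7a9, with -0.68 ± 0.46 on control diet, -0.72 ± 0.46 on cystine diet and -0.7 ± 0.33 on average (95% interval -1.36 to -0.04, adjusted p = 0.191), and did not pass. Diet differences were -0.18 ± 0.47 in Lgr5-high and -0.14 ± 0.45 in Lgr5-low libraries (both adjusted p = 1).

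Slc3a2, at chr19:8706882-8723369 on the minus strand, encodes 4F2hc, the heavy chain shared by xCT, LAT1 and other light chains. Its level in Lgr5-high libraries was 19.4 to 41.6 CPM (median 29.6) on control diet and 6.49 to 50.1 CPM (median 29.5) on cystine diet. Its level in Lgr5-low libraries was 31.4 to 57.1 CPM (median 38.5) and 24.1 to 105 CPM (median 44.1). On control diet 5 of 7 Lgr5-high libraries lay below every Lgr5-low library, and on cystine diet 3 of 7 did. The log2 difference was -0.45 ± 0.32 (adjusted p = 0.613) on control diet and -0.93 ± 0.32 (adjusted p = 0.125) on cystine diet. Averaged over both diets, Slc3a2 fell by 0.69 ± 0.23 (95% interval -1.15 to -0.23, adjusted p = 0.0497), to 0.62 of the Lgr5-low level. That call stood at the edge of the threshold and was lost when any of 20 of the 28 libraries was left out, with adjusted p then between 0.0512 and 0.117. On cystine diet alone, leaving out Lgr5-high cystine replicate 6 gave -1.15 (adjusted p = 0.049). Diet differences were -0.12 ± 0.32 (95% interval -0.77 to 0.53) in Lgr5-high and 0.35 ± 0.32 (-0.29 to 1) in Lgr5-low libraries.

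Slc1a1, at chr19:28835049-28913960 on the plus strand, encodes EAAT3, a carrier of glutamate, aspartate and cysteine. The protein-coding gene 4430402I18Rik overlaps it on the opposite strand. Lgr5-high libraries held 0.253 to 18.8 CPM (median 7.15) on control diet and 2.88 to 11.2 CPM (median 4.54) on cystine diet. Lgr5-low libraries held 6.43 to 41.2 CPM (median 16.4) and 4.6 to 21.9 CPM (median 13.2). On cystine diet all 7 Lgr5-high libraries lay below the Lgr5-low median, and the groups still overlapped. The log2 difference was -0.94 ± 0.46 (adjusted p = 0.379) on control diet and -1.16 ± 0.47 (adjusted p = 0.2) on cystine diet. Averaged over both diets, Slc1a1 fell by 1.05 ± 0.33 (95% interval -1.72 to -0.38, adjusted p = 0.0373), to 0.482 of the Lgr5-low level, and this call was lost when any of 12 libraries was left out (adjusted p 0.0522 to 0.0915). The diet differences were -0.55 ± 0.47 in Lgr5-high and -0.34 ± 0.46 in Lgr5-low libraries, both with adjusted p = 1.

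**Figure D2:**
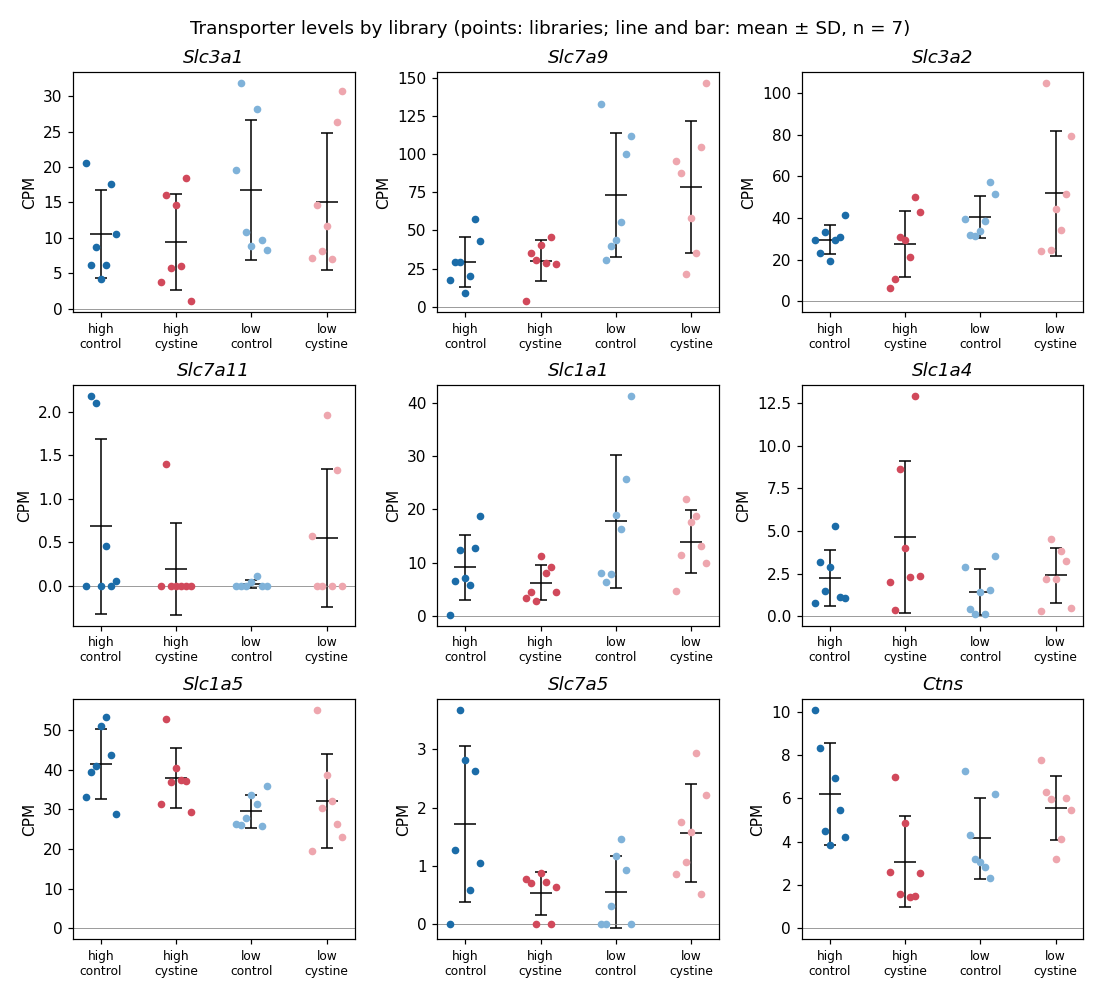
CPM of each transporter gene in every library (points), with mean ± SD (n = 7) for the 4 groups of Lgr5 population (high, low) and diet (control, cystine). Slc7a9 reaches 57.7 CPM at most in Lgr5-high control and 147 CPM in Lgr5-low cystine libraries, and the groups overlap for every gene.

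Markers of several differentiated cell types were lower in Lgr5-high libraries in the same averaged contrast. Of goblet cell markers 8 of 8 tested passed as lower (median log2 difference -1.69), of enteroendocrine markers 7 of 10 (-1.94), of tuft cell markers 3 of 6 (-1.05) and of enterocyte markers 5 of 12 (-0.9). Markers of Paneth cells, also differentiated, leaned the other way: all 7 had positive values (median 0.35), and 0 passed. They summed to a median of 78600 CPM in Lgr5-high control and 42000 CPM in Lgr5-low control libraries. On cystine diet the medians were 72400 and 69200 CPM. Goblet markers summed to 7000 to 19600 CPM over the Lgr5-high libraries and to 17300 to 54200 CPM over the Lgr5-low libraries. The sums were 68 to 242 CPM and 298 to 910 CPM for enteroendocrine markers, and 8.56 to 88.6 CPM and 30.8 to 98.2 CPM for tuft cell markers. The part of goblet, enteroendocrine, tuft and Paneth cells in the transporter differences was not tested. The summed level of the enterocyte markers was 1570 to 11200 CPM (median 8480) in Lgr5-high control and 3990 to 14800 CPM (median 6990) in Lgr5-high cystine libraries. It was 5040 to 21900 CPM (median 9450) and 6530 to 34700 CPM (median 14300) in the Lgr5-low groups. All 12 enterocyte markers had negative values in the averaged contrast, and those that passed included Vil1, a brush border cytoskeleton gene, at -0.74 ± 0.18 (adjusted p = 0.00523) and Mttp, a lipid transfer gene, at -0.94 ± 0.19 (adjusted p = 0.00127). With an enterocyte marker score added to the model, a setting chosen after the data had been seen, the 3 calls were lost: Slc7a9 stood at -0.7 (adjusted p = 0.314), Slc3a2 at -0.33 (adjusted p = 0.591) and Slc1a1 at -1.03 (adjusted p = 0.147). The macrophage markers moved the other way on cystine diet, with 10 of 13 tested higher in Lgr5-high libraries. With a macrophage score in the model, Slc7a9 stood at -1.66 (adjusted p = 0.0321) on control diet and at -2.63 (adjusted p = 0.0183) on cystine diet, where Slc3a2 stood at -1.8 (adjusted p = 0.0143). Averaged over diets, Slc1a1 lost its call with this term (-1.2, adjusted p = 0.0862). In Lgr5-high cystine libraries the macrophage markers summed to 24.7 CPM in replicate 1 and to 211 to 693 CPM in the others. Replicate 1 also held the lowest Slc7a9 (3.6 CPM) and Slc3a2 (6.49 CPM) of that group. The part of this library in the stronger values was not tested.

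Slc1a5, at chr7:16781340-16798274 on the plus strand, encodes ASCT2, the exchanger of glutamine and small neutral amino acids. Its SD relative to its mean, averaged over the groups, was the smallest of the 9 genes. Lgr5-high libraries held 28.9 to 53.2 CPM (median 41) on control diet and 29.3 to 52.7 CPM (median 37.2) on cystine diet. Lgr5-low libraries held 25.7 to 35.8 CPM (median 27.7) and 19.5 to 55.1 CPM (median 30.2). On control diet 5 of 7 Lgr5-high libraries lay above every Lgr5-low library and 7 of 7 above the Lgr5-low median. The log2 difference was 0.49 ± 0.2 (95% interval 0.08 to 0.9, adjusted p = 0.25) on control diet and 0.24 ± 0.2 (adjusted p = 0.654) on cystine diet. Diet differences were -0.14 ± 0.2 (95% interval -0.54 to 0.27) in Lgr5-high and 0.12 ± 0.2 (-0.29 to 0.53) in Lgr5-low libraries, the narrowest intervals among the transporters.

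Slc1a4, at chr11:20302180-20332713 on the minus strand, encodes ASCT1, which exchanges alanine, serine, cysteine and threonine. Its levels were low, 0.759 to 5.32 CPM (median 1.5) and 0.349 to 12.9 CPM (median 2.33) in Lgr5-high control and cystine libraries. In Lgr5-low libraries it held 0.112 to 3.55 CPM (median 1.43) and 0.287 to 4.53 CPM (median 2.21). In the Lgr5-high population 2 cystine libraries lay above every control library and 1 lay below. The diet difference was 1.01 ± 0.74 (95% interval -0.48 to 2.5) in Lgr5-high and 0.78 ± 0.75 (-0.73 to 2.29) in Lgr5-low libraries, and the population difference averaged over diets was 0.8 ± 0.52 (adjusted p = 0.395).

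Slc7a11, at chr3:49892526-50443614 on the minus strand, encodes xCT, the exchanger that takes in cystine for glutamate. It had 130 counts over all 28 libraries and was at 0 in 18 of them, where 3 counts would be 0.139 to 1.09 CPM. Of the 130 counts, 114 lay in 4 libraries, Lgr5-high control replicates 2 and 3 and Lgr5-low cystine replicates 4 and 6, with 26 to 31 counts each. The other 24 libraries had at most 7 counts. The 4 libraries had total counts of 13.1 to 18.6 M, within the range of the others. The highest level was 2.18 CPM in Lgr5-high control, 1.4 in Lgr5-high cystine, 0.112 in Lgr5-low control and 1.96 in Lgr5-low cystine libraries. Two-sided exact permutation tests of log2(CPM + 0.1), 7 against 7 libraries, gave p = 0.119 and 0.437 between populations on control and cystine diet, and p = 0.241 and 0.192 between diets in Lgr5-high and Lgr5-low libraries (adjusted p 0.321 to 0.437). The smallest p such a test can give is 0.000583. No difference in Slc7a11 passed. Some of the deepest libraries were at 0, among them Lgr5-low cystine replicate 5 with 21.5 M counts and Lgr5-high control replicate 6 with 21.4 M, where 3 counts would be 0.139 and 0.14 CPM, so libraries of the same group differed by more than these floors.

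Slc7a5, at chr8:121881150-121907694 on the minus strand, encodes LAT1, a carrier of large neutral amino acids. It was at 0 in 6 of 28 libraries, which had total counts of 2.75 to 6.42 M. Lgr5-high libraries held 0 to 3.68 CPM (mean 1.72 ± 1.34, SD) on control diet and 0 to 0.872 CPM (mean 0.531 ± 0.37) on cystine diet. Lgr5-low libraries held 0 to 1.46 CPM (mean 0.551 ± 0.621) on control diet and 0.512 to 2.94 CPM (mean 1.56 ± 0.837) on cystine diet. All 7 Lgr5-high cystine libraries lay below the control median of that population, and all 7 Lgr5-low cystine libraries lay above the control median of theirs. Counts summed to 201 in Lgr5-high control, 28 in Lgr5-high cystine, 53 in Lgr5-low control and 172 in Lgr5-low cystine libraries. The groups with fewer counts were those of lower median depth (5.32 and 7.3 M, against 15.4 and 14.8 M). The part of depth in this pattern was not tested. The diet difference was -1.63 ± 0.97 (95% interval -3.59 to 0.33) in Lgr5-high and 1.41 ± 0.95 (-0.51 to 3.32) in Lgr5-low libraries. The difference between these diet effects was -3.04 ± 1.35 (95% interval -5.77 to -0.3, unadjusted p = 0.0306, adjusted p = 1) and did not pass.

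Ctns, at chr11:73183596-73199042 on the minus strand, encodes cystinosin, the lysosomal cystine exporter. In Lgr5-high libraries it ranged from 3.83 to 10.1 CPM (median 5.46) on control diet and from 1.46 to 6.99 CPM (median 2.55) on cystine diet. In Lgr5-low libraries it ranged from 2.34 to 7.25 CPM (median 3.18) and from 3.22 to 7.76 CPM (median 5.99). In the Lgr5-high population 5 of 7 cystine libraries lay below every control library, and 2 of 7 did not. The diet difference was -1.02 ± 0.45 (95% interval -1.93 to -0.11, unadjusted p = 0.0297, adjusted p = 1) in Lgr5-high and 0.42 ± 0.44 (adjusted p = 1) in Lgr5-low libraries. The difference between the diet effects was -1.44 ± 0.63 (95% interval -2.71 to -0.16, unadjusted p = 0.0281, adjusted p = 1). The Lgr5-high cystine libraries had the lowest median depth and the highest macrophage marker levels of the 4 groups, and the part of either in this difference was not tested.

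Across the diet comparisons, 0 of 8 tested transporters passed in Lgr5-high libraries, against 0.168% of all genes. In Lgr5-low libraries 0 of 8 passed, against 0% of all genes, and the same counts held for the difference between the diet effects. Averaged over the populations, a contrast chosen after the data had been seen, 0 of 8 passed against 0.16% of all genes, with every adjusted p = 1. At an unadjusted p under 0.05, Ctns was the single transporter in Lgr5-high libraries, as were 535 of the 12495 genes, and 0 of 8 were found in Lgr5-low libraries, against 2.97%. For the difference between the diet effects, Slc7a5 and Ctns had an unadjusted p under 0.05, against 3.32% of all genes. DESeq2 and limma-voom called 0 transporters in each diet contrast. The averaged diet difference was -0.01 ± 0.14 (95% interval -0.3 to 0.28) for Slc1a5, 0.12 ± 0.23 (-0.34 to 0.58) for Slc3a2 and 0.06 ± 0.33 (-0.61 to 0.74) for Slc7a9. For Slc7a5 and Slc1a4 the intervals were wider, -1.45 to 1.23 and -0.17 to 1.96. A p that misses the threshold does not show equal levels.

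**Figure D3:**
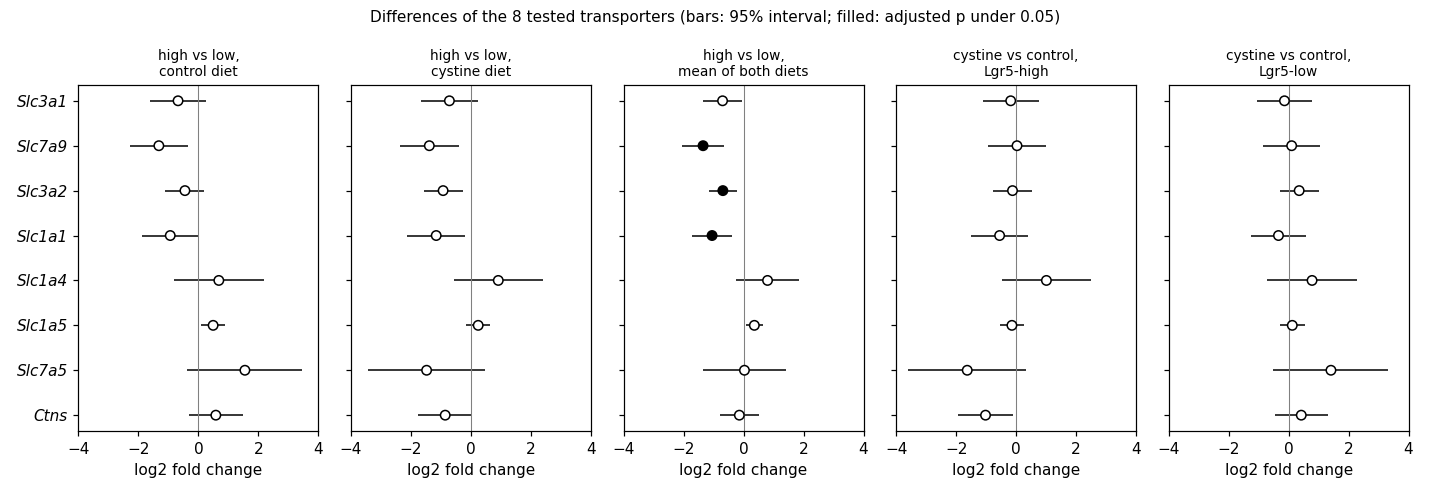
Log2 fold change (x axis) with 95% interval of the 8 tested transporter genes in 5 contrasts, filled where the adjusted p was under 0.05. The averaged population contrast has 3 filled points, Slc7a9 at -1.35, Slc1a1 at -1.05 and Slc3a2 at -0.69, and the other 4 panels have none.

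The ratio of heavy to light chain transcripts varied between libraries of a group, and no difference between groups passed the threshold. The log2 ratio of Slc3a1 to Slc7a9 CPM was -1.46 ± 0.82 (SD, n = 7) in Lgr5-high control, -1.86 ± 1.46 in Lgr5-high cystine, -2.13 ± 1.34 in Lgr5-low control and -2.37 ± 0.7 in Lgr5-low cystine libraries. The 12 ratio comparisons were tested by two-sided exact permutation and adjusted over the 12. The Slc3a2 to Slc7a5 ratio was 6.77 ± 1.86 in Lgr5-low control and 4.94 ± 0.95 in Lgr5-low cystine libraries, a difference of -1.83 (exact p = 0.049, adjusted p = 0.219). For Slc3a2 to Slc7a11 the ratio was 6.44 ± 2.11 in Lgr5-high control and 8.4 ± 0.59 in Lgr5-low control libraries (difference -1.95, exact p = 0.0286, adjusted p = 0.219). Ratios with Slc7a11 and Slc7a5 rest on added pseudocounts of 0.1 CPM where the light chain was at 0.

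**Figure D4:**
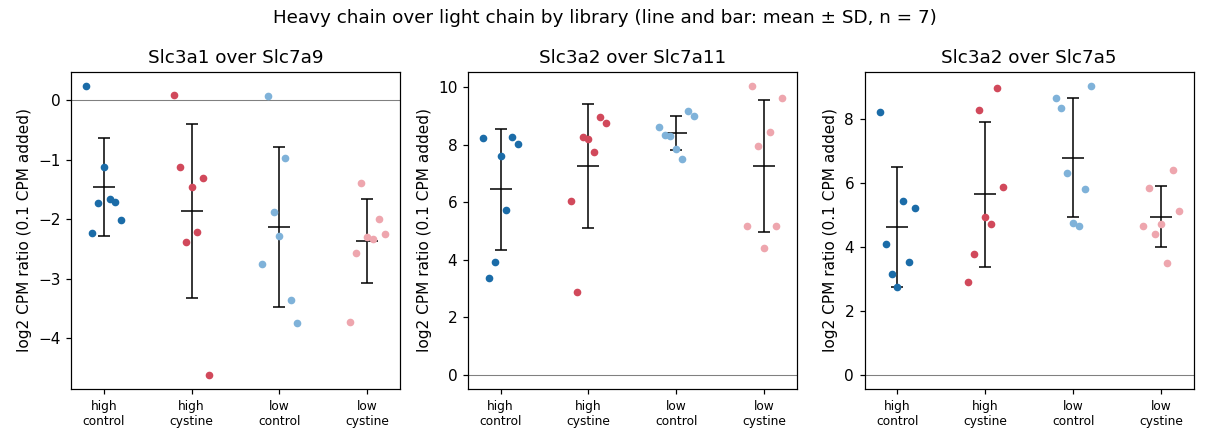
Log2 ratio of heavy chain to light chain CPM (0.1 CPM added to both) in each library (points), with mean ± SD (n = 7), for 3 heavy and light chain pairs in the 4 groups. Slc3a1 over Slc7a9 lies mostly below 0, and Slc3a2 over either light chain lies above it.

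Within groups, Slc7a9 and Slc3a2 varied together over the 28 libraries (Pearson r = 0.67 of log2 CPM after subtracting group means), and Slc3a1 with Slc7a9 less so (r = 0.37). Slc1a1 and Slc7a5 had r = 0.52. These points share library, depth and cell makeup, and the values are descriptions. Of 11162 genes compared, those most like Slc7a9 were Cobl (r = 0.83), Il18bp (0.82) and Gsdmd (0.77). Those most like Slc3a2 were Faah (0.8), Myh14 (0.79) and Anxa13 (0.76), and those most like Slc1a1 were Rps6ka1 (0.85), Cebpa (0.85) and Fnbp4 (0.84). For Slc3a1 they were Gng12 (0.76), Pfkp (0.75) and Gdpd2 (0.74), and for Slc1a5 Med12 (0.66), Rufy2 (0.64) and Dcaf17 (0.64). Slc1a4 was most like Lrrc14 (0.73), Lrig2 (0.72) and Cyp2u1 (0.72). Slc7a5 was most like Rheb (0.77), Nthl1 (0.72) and Zfp942 (0.72), and Ctns most like Ndufa6 (0.69), Pdzd11 (0.67) and B3galt5 (0.65).

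Other carriers and enzymes of cysteine supply made up 7 lists of 72 genes, of which 58 passed the filter on low counts. Of these 58, 3 (5.17%) passed between populations on control diet and 3 (5.17%) on cystine diet, against 1.8% and 2.64% of all tested genes. Of the SLC1 glutamate carriers, 1 of 2 tested passed as higher in Lgr5-high libraries on both diets. This was Slc1a2, a glutamate carrier best known from glia, at 4.81 to 28.7 CPM (median 21.1) in Lgr5-high control and 1.35 to 12.2 CPM (median 4.22) in Lgr5-low control libraries, with 1.88 ± 0.41 (adjusted p = 0.011) on control and 1.91 ± 0.41 (adjusted p = 0.00618) on cystine diet. Of the 14 genes of cysteine use and glutathione breakdown, 1 passed on each diet, Glrx, which encodes glutaredoxin, a reductase that uses glutathione. Glrx rose by 0.78 ± 0.18 (adjusted p = 0.0131) in Lgr5-high libraries on control diet. Of 7 tested genes listed as lysosomal carriers, 1 passed on each diet as lower, Slc66a3. It stood at -1.76 ± 0.45 (adjusted p = 0.0306) on control and -2.06 ± 0.46 (adjusted p = 0.00925) on cystine diet. Positive values were held by 4 of the 7 on control and 5 of the 7 on cystine diet. Between diets, averaged over the populations, all 7 had positive values (median 0.58, against -0.01 for all genes), and 0 passed. Ctns had -0.3 ± 0.31 in that contrast. The list does not show what Slc66a3 carries.

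The remaining lists had no gene past the threshold within a diet. Among 8 tested SLC7 genes, Slc7a8, the light chain LAT2 of neutral amino acid exchange at the basolateral side, stood at -1.57 ± 0.53 (adjusted p = 0.132) on control diet, and Slc7a7, the light chain of the cationic and neutral exchanger y+LAT1, at -0.78 ± 0.29 (adjusted p = 0.146) on cystine diet. Of 7 tested apical carriers and accessory proteins, all 7 had negative values on control diet, with a median of -0.87 against -0.01 for all genes. Anpep, the brush border aminopeptidase N, stood at -1.33 ± 0.44 (adjusted p = 0.0974) on cystine diet, and Slc6a20a, an imino acid carrier, at -1.26 ± 0.7 (adjusted p = 0.408). Of 8 tested basolateral, SLC38 and SLC43 carriers, Slc38a4 stood at 1.31 ± 0.53 and Slc38a10 at -1.32 ± 0.6 on control diet (adjusted p = 0.24 and 0.322). Of 13 tested regulators of Slc7a11 and the amino acid response, Nfe2l2, which encodes NRF2, stood at -0.51 ± 0.15 (adjusted p = 0.0554) on cystine diet. Trib3, a pseudokinase induced by ATF4, stood at -4.27 ± 1.35 (adjusted p = 0.0992) on control diet. This value is near the floor: Trib3 had 10 counts in Lgr5-high control libraries (mean 0.0896 CPM, 4 of 7 at 0). It had 106 counts in Lgr5-low control libraries (mean 2.06 CPM, 1 of 7 at 0). Averaged over diets, Slc7a8 (-1.27 ± 0.38, adjusted p = 0.0279), Slc7a7 (-0.68 ± 0.2, 0.0269), Anpep (-1.24 ± 0.31, 0.00687) and Cth (-0.41 ± 0.13, 0.0475), which encodes the enzyme that makes cysteine from cystathionine, passed as lower. With Slc66a3, 5 of the 58 (8.62%) were called lower in that contrast, against 5.05% of all genes, and 7 (12.1%) were called in either direction, against 8.8%. None of the 58 tested genes passed in a diet contrast.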

How the data were processed

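Gene-level values for 28 libraries are estimated counts, which the authors deposited in 1 table of whole numbers. Salmon 1.3.0 and the build mm10 are named in the submitters' processing notes. Per the labels' protocols, libraries were made from poly(A)-selected RNA with a kit that keeps strand. The sources used here do not give the annotation, the trimming or the summing to genes. The transporters, gene lists and tests were chosen with earlier results of these data known. Coordinates and lengths came from GENCODE M21 (GRCm38), which held 94.8% of the gene identifiers.

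Counts were fitted with edgeR 4.0.16 in R 4.3.3 (TMM factors, filterByExpr, robust quasi-likelihood fit), as a single model of 28 libraries with 1 mean for each group. Of 54354 genes, 12495 were tested and adjusted together. The common biological coefficient of variation was 0.629. The contrasts were the populations within each diet (Lgr5-high minus Lgr5-low), cystine against control in each population, and the difference between the diet effects. The population and diet contrasts averaged over the other factor were added after the data had been seen. The fit was tested on simulated data with known changes. Slc7a11 and the chain ratios (log2, 0.1 CPM added) were tested by exact permutation. Intervals are 95% t intervals from this fit and include the spread between libraries, and floors for counts of 0 cover counting error only. Genes without a symbol, 1243 in all, held 0.00328% to 0.0111% of counts and stayed in the tests. No 2 libraries of a group were alike within sampling noise: chi-square per gene was 12.7 to 251 over 84 pairs.

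All 9 transporters are named. From each list the text names genes past the threshold, or otherwise the 2 of lowest p in a pairwise contrast. Genes past the threshold in the averaged contrast only, and enterocyte markers, were named after their values were seen. The 3 tested genes of highest within-group correlation are named for each transporter. Alternatives were RLE factors, DESeq2 1.42.0, limma-voom (limma 3.58.1), no filter, a minimum of 1 CPM in 7 libraries or more, a fit to the compared groups alone, a replicate block, a sex term, a macrophage score term, dropping the libraries below 5 M counts and dropping each library in turn. An enterocyte score term and fits within each sex class were added after the data had been seen. A score is the mean log2 CPM of the marker list of that cell type. The sex class, female where Xist exceeded 50 CPM and male otherwise, was read from the data. Lgr5-high control and Lgr5-low control held 4 female and 3 male libraries each, and both cystine groups held 5 and 2.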

Additional observations from a re-analysis of the deposited data

Results flagged for a closer look

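In 3 cases the value of 1 library was set apart from the other 6 of its group by Dixon's criterion for 7 values (gap over range above 0.568), among 48 group tests. Chance flags about 1 in 20 groups. Slc7a9 was at 3.6 CPM in Lgr5-high cystine replicate 1 and at 28.2 to 45.7 CPM in the other 6, with a gap of 0.585 of the range. Slc7a11 was at 1.4 CPM in Lgr5-high cystine replicate 2 and at 0 in the other 6, a gap over range of 1. With 6 values at 0 this ratio is 1 for any level in the remaining library, so the zeros alone fix this flag. The level rests on 4 counts in a library of 3.39 M. Slc7a11 was at 0.112 CPM in Lgr5-low control replicate 5 and at 0 to 0.0446 CPM in the other 6, with a gap of 0.603 of the range. That library and replicate 4 of the same group held 1 count each, so that their CPM differ through library size alone.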

How the results depend on the processing

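Slc7a11 and Slc7a5 were at 0 in 18 and 6 of 28 libraries, with floors of 0.139 to 1.09 and 0.467 to 1.09 CPM, and the common coefficient of variation was 0.629. The count of transporters past the threshold was 0 in the 5 pairwise and difference contrasts, except that the populations gave 1 on control diet and 2 on cystine diet with the macrophage score term, 1 on cystine diet in the male class (Slc3a2, -2.97, adjusted p = 0.0127), and 0 to 1 on cystine diet when 1 library was left out (1 without Lgr5-high cystine replicate 6). The male class call compares 2 Lgr5-high with 2 Lgr5-low libraries. The averaged population count of 3 became 0 with the enterocyte score term, 1 in the female class and 1 in the male class, and 1 to 3 when 1 library was left out. With limma-voom it was 4, Slc1a5 being called higher (0.36, adjusted p = 0.043), and without Lgr5-low cystine replicate 2 Slc1a5 was called (0.45, adjusted p = 0.03) and Slc3a2 was not. The count was 1 without any 1 of Lgr5-low control replicates 6 and 7, Lgr5-low cystine replicate 4, Lgr5-high control replicates 2, 4, 5, Lgr5-high cystine replicates 1, 2, 3. The causes were not tested. Over 40 settings Slc7a9 passed in 37, Slc1a1 in 25 and Slc3a2 in 16, with log2 values of -2.15 to -0.7, -1.2 to -0.64 and -1.61 to -0.33. Besides the enterocyte score term, Slc7a9 missed the threshold in the female class (-1.17, adjusted p = 0.084) and the male class (-1.89, adjusted p = 0.219). Slc3a2 also missed it with RLE size factors (-0.68, adjusted p = 0.0563) and without libraries under 5 M counts (-0.81, adjusted p = 0.0503). In the female class Slc3a2 missed it as well (-0.5, adjusted p = 0.114). Slc1a1 missed it with the macrophage score term (-1.2, adjusted p = 0.0862) and in the male class (-0.64, adjusted p = 0.758). Slc1a1 lost its call without any 1 of Lgr5-low control replicates 6 and 7, Lgr5-low cystine replicates 3, 4, 5, Lgr5-high control replicates 2, 4, 5, Lgr5-high cystine replicates 1, 2, 3, 7. Slc3a2 lost its call without any 1 of Lgr5-low control replicates 1, 4, 5, 6, 7, Lgr5-low cystine replicates 2, 4, 6, 7, Lgr5-high control replicates 1, 2, 3, 4, 5, 6, Lgr5-high cystine replicates 1, 2, 3, 4, 5.

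Replicate numbers recur in every group, but the labels do not say whether they link libraries. Same-numbered libraries of the 2 populations correlated at 0.1 to 0.33 on control and -0.14 to 0.29 on cystine diet over 7395 genes. The same number exceeded every other number for replicates 1, 3, 4 and 6 on control diet and 1, 3 and 5 on cystine diet. For the remaining replicates another number was higher. Unlinked numbers would come out highest less often than this. The sex class counts were the same in both populations of each diet. Pairing of the populations was thus possible but not settled, and the numbers were not taken as pairs in the main fit. With the replicate block in the edgeR fit, 0 transporters passed in each pairwise contrast and 3 in the averaged population contrast. These were Slc7a9 at -1.31 (adjusted p = 0.0301), Slc3a2 at -0.69 (adjusted p = 0.02) and Slc1a1 at -1.11 (adjusted p = 0.0134).

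Of 686 log2 differences in settings other than leaving out 1 library, 51 changed sign and none of these passed the threshold. The changed values were, by setting and contrast, as follows. Without libraries under 5 M counts: Slc1a4 -0.03 and Slc3a2 over Slc7a5 -0.39 (populations on cystine diet), Slc7a9 -0.32 (diets in Lgr5-high), Slc1a1 0.01, Slc3a1 0.11, Slc3a1 over Slc7a9 0.11 (diets in Lgr5-low), Slc1a4 -1.05 (difference of diet effects), Slc7a9 -0.14 (averaged diets). With an enterocyte score term: Slc3a1 0.02 (populations on cystine diet), Slc3a1 0.06 (diets in Lgr5-high), Slc3a1 0.09 and Slc7a9 0.04 (difference of diet effects), Ctns 0.04 and Slc7a5 -0.36 (averaged populations), Slc3a1 0.01 (averaged diets). In the male class: Slc1a4 -0.06 (populations on cystine diet), Slc1a4 -0.57, Slc1a5 0.11, Slc7a9 -0.51 (diets in Lgr5-high), Slc1a1 0.11 (diets in Lgr5-low), Ctns 0.01 (averaged populations), Slc1a4 -0.22, Slc1a5 0.3, Slc3a2 -0.43, Slc7a5 1.13, Slc7a9 -0.04 (averaged diets). With a sex term: Slc7a9 -0.03 (diets in Lgr5-high). With a macrophage score term: Slc7a9 -1.23 (diets in Lgr5-high), Slc3a2 -0.02 and Slc7a9 -0.26 (diets in Lgr5-low), Slc1a4 -0.54 (difference of diet effects), Slc3a2 -0.54, Slc7a5 0.98, Slc7a9 -0.74 (averaged diets). In the female class: Slc3a2 0.2 (diets in Lgr5-high), Slc1a5 -0.08, Slc3a1 0.28, Slc7a9 -0.08 (diets in Lgr5-low), Slc7a5 -0.41 (averaged populations), Slc3a1 0.1 (averaged diets). With limma-voom: Slc7a9 -0.01 (diets in Lgr5-high), Slc7a9 -0.15 (diets in Lgr5-low), Slc1a4 -0.8 and Slc7a9 0.15 (difference of diet effects), Slc3a2 -0.1 and Slc7a9 -0.08 (averaged diets). With RLE size factors: Slc3a1 0.02 (difference of diet effects), Slc1a5 0.01 (averaged diets). With the replicate block: Slc3a1 0.0 and Slc7a9 0.16 (difference of diet effects), Slc7a5 0.17 (averaged diets). With DESeq2: Slc3a1 0.02 (difference of diet effects), Slc1a5 0.0 (averaged diets). With 1 CPM added to both chains: Slc3a2 over Slc7a11 -0.65 and Slc3a2 over Slc7a5 -0.24 (populations on cystine diet). When 1 library was left out, 75 of 1120 log2 differences and 10 of 168 ratio differences changed sign, none past the threshold, over these ranges: Slc3a1 -0.43 to 0.05, Slc3a2 -0.33 to 0.04, Slc7a9 -0.13 to 0.28, Slc3a1 over Slc7a9 -0.72 to 0.07 (diets in Lgr5-high), Slc1a1 -0.49 to 0.01, Slc1a5 -0.06 to 0.21, Slc3a1 -0.43 to 0.08, Slc7a9 -0.14 to 0.31, Slc3a1 over Slc7a9 -0.5 to 0.13 (diets in Lgr5-low), Slc1a1 -0.56 to 0.07, Slc1a4 -0.2 to 0.62, Slc3a1 -0.26 to 0.25, Slc7a9 -0.32 to 0.19 (difference of diet effects), Slc7a5 -0.12 to 0.23 (averaged populations), Slc1a5 -0.1 to 0.03, Slc3a2 -0.02 to 0.2, Slc7a5 -0.22 to 0.1, Slc7a9 -0.06 to 0.18 (averaged diets), Slc3a2 over Slc7a11 -0.46 to 0.74 (populations on cystine diet).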
